A study of Mus musculus with 4 samples.

Results

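The Fc gamma receptor genes of the mouse are Fcgr1, Fcgr3 and Fcgr4, which encode activating receptors, Fcgr2b, which encodes the inhibitory receptor, and Fcer1g, which encodes the common gamma chain. They were found by symbol among the 32285 genes of the count tables, and all 5 of 5 were present. They were measured in 10 µm sections of mouse brain laid on slides of 10x Visium, whose barcoded spots take up RNA from the tissue above them. A spot is a small region that can hold several cells of different types. The series concerns inflammation around cerebral cavernous malformations, vascular lesions of the brain that form when endothelium loses Pdcd10 (Ccm3).

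Both groups carried floxed Pdcd10 (Pdcd10fl/fl) and belonged to litters given 50 µg of 4-hydroxytamoxifen on postnatal day 1. The 2 knockout libraries came from Slco1c1-iCreERT2;Pdcd10fl/fl mice, in which the Slco1c1 promoter drives a tamoxifen-regulated Cre in brain endothelium, at postnatal day 65. The 2 control libraries came from Pdcd10fl/fl littermates without Cre, whose age at sampling the labels do not give. Whether the groups were of the same age is thus not known. The gene was therefore removed from brain endothelial cells and not, by design, from the myeloid cells in which Fc gamma receptors are mostly found. The labels disagree on oxygen: titles and design text give normoxia for every library, the treatment field gives hypoxia for the knockouts alone, and the protocol states 12% oxygen for 2 days without exception. Should the treatment field be right, genotype and oxygen cannot be told apart. The labels do not tell whether both libraries of a group stem from different animals. A p-value here therefore reflects the scatter among these 4 libraries and no more, and that scatter may be technical.

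Fc gamma receptors bind the constant part of immunoglobulin G and tie antibody to phagocytes. The activating receptors signal through the gamma chain, whose immunoreceptor tyrosine-based activation motif (ITAM) is phosphorylated by Src-family kinases and recruits Syk, which leads to engulfment, an oxidative burst and cytokine release. Fcgr2b carries an inhibitory motif (ITIM) in its own tail and recruits the lipid phosphatase Inpp5d (SHIP1), which restrains the same response. In brain these receptors are known from microglia, border macrophages and blood-derived myeloid cells, and Fcgr2b also from B cells and some endothelia.

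The libraries held 50148764 to 74467027 UMIs (unique molecular identifiers, each counting 1 captured RNA molecule). The analysis used spots that reached 1000 UMIs: 2931 in control 1, 4096 in control 2, 4599 in knockout 1 and 4472 in knockout 2. The same barcodes occurred in every library, since they are the fixed set of a slide. Neuronal markers, which check the tissue, summed to 5528 to 5799 CPM (counts per 1000000 UMIs) in all 4 libraries. The sections were not alike in other respects. Oligodendrocyte markers were lower in the knockouts (5086 and 3606 CPM) than in the controls (8618 and 12466 CPM), and choroid plexus and pituitary markers were lower there as well (13.6 and 15.6 CPM, against 345 and 138 CPM).

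Fcgr2b, Fcgr4, Fcgr3 and Fcer1g lie in 1 stretch of chromosome 1 that spans 273792 bases from 170960558 to 171234349 (GRCm38.p6), and Fcgr1 lies on chromosome 3 from 96282909 to 96293969. The stretches around their transcription start sites are shown because members of 1 family that moved together differed in a myeloid promoter motif. PU.1, the transcription factor encoded by Spi1 that shapes myeloid cells, binds purine-rich sites with the core GAGGAA, read as TTCCTC on the opposite strand. Each sequence below is read on the gene's own strand from RefSeq (GRCm38.p6), with the motif in capitals.
Fcgr1 (chr3:96293920-96294029, minus strand): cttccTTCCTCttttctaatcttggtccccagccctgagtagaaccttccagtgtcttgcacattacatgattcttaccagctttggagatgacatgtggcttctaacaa
Fcgr3 (chr1:171059354-171059463, minus strand): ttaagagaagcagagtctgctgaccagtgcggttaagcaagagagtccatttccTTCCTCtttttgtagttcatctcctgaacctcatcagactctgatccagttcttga
Fcgr4 (chr1:171018866-171018975, plus strand): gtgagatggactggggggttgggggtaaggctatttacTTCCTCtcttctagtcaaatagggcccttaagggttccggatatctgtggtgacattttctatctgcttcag
Fcer1g (chr1:171234300-171234409, minus strand): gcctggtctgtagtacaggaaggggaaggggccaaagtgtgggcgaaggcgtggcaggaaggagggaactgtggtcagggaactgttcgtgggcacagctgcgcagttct
Fcgr2b (chr1:170976022-170976131, minus strand): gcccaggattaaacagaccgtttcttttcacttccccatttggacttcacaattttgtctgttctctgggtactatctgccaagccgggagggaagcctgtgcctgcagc

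Both strands of the window from 250 bases before to 50 bases after each start site were searched. The motif was in the windows of 3 of 5 members, those of the activating receptors, each time as TTCCTC on the gene's strand. It began 55 bases before the start site in Fcgr1, 22 bases before it in Fcgr4 and 6 bases before it in Fcgr3. For Fcgr3 the first of its 2 windows was used, which lies inside the gene (171051169 to 171065915, minus strand). What its other window holds is not given, so the motif at Fcgr3 rests on that choice. The windows of Fcgr2b and Fcer1g did not hold these letters. Of 32851 RefSeq windows of 300 bases, 28.3% held the motif on either strand, so its presence is common.

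All 5 Fc receptor genes rose in the knockout libraries. The gene of the receptor Fcgr4 had the largest fold change of the 5, followed by inhibitory Fcgr2b, then Fcgr3, Fcer1g and Fcgr1. Both knockouts lay above both controls for every member. The test was the quasi-likelihood test of edgeR, adjusted by Benjamini-Hochberg over 17546 genes, of which 20.1% were called higher, 18.3% lower, 38.4% in either direction, and 7.97% were called and at least 2-fold higher. Both knockouts exceeded both controls in 36.6% of the genes tested and lay below both in 35.9%. Levels of whole libraries below are CPM scaled with TMM factors. For knockout against control, each adjusted p comes from that test unless another is named. Levels within classes of spots, region lists and barcodes under 1000 UMIs are CPM without TMM factors.

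Fcgr1 encodes the high-affinity receptor, which can bind monomeric immunoglobulin G. Control 1 had 2.25 CPM and control 2 had 2.96 CPM of it, and knockouts 1 and 2 had 5.60 and 6.25 CPM. The groups did not overlap, and the rise of 2.26-fold (95% interval 1.74 to 2.95, log2 fold change 1.18, SE 0.162, adjusted p 0.0018) was the smallest of the family. Its counts were 110, 182, 302 and 481 UMIs.

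Fcgr3 encodes a low-affinity activating receptor of phagocytes and natural killer cells. The controls had 10.5 and 11.6 CPM of it, the knockouts 47.5 and 40.6 CPM. Knockout 1 was the highest library, and its counting interval (45.7 to 49.4 CPM) did not meet that of knockout 2 (39.2 to 42.1 CPM), yet both were far above the controls. The rise was 3.97-fold (3.37 to 4.68, log2 fold change 1.99, SE 0.101, adjusted p 2.49e-05).

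Fcgr4 encodes an activating receptor for immunoglobulin G2a, G2b and G2c that is found on monocytes, macrophages and neutrophils. The controls held 6 and 7 UMIs of it, or 0.123 and 0.114 CPM, and the knockouts 324 and 447 UMIs, or 6.01 and 5.81 CPM. It was close to undetected in both controls and alike in both knockouts. The fold change was 49.2 (34.9 to 69.5, log2 fold change 5.62, SE 0.211, adjusted p 7.41e-06), which ranked 35 among all genes tested by log2 fold change.

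Fcer1g, the signalling chain that the activating receptors share with the mast cell receptor for immunoglobulin E and with several lectin receptors, had control levels of 17.3 and 20.2 CPM and knockout levels of 46.6 and 43.9 CPM. The groups did not overlap. It rose 2.41-fold (2.08 to 2.79, log2 fold change 1.27, SE 0.0893, adjusted p 0.000105), less than 3 of the 4 receptor chains.

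Fcgr2b, the inhibitory receptor, had control levels of 2.39 and 2.70 CPM and knockout levels of 29.7 and 33.2 CPM. Its counts went from 117 and 166 UMIs to 1599 and 2558 UMIs, with no overlap. The rise was 12.3-fold (10.3 to 14.7, log2 fold change 3.62, SE 0.111, adjusted p 4.17e-06), and it ranked 127 by log2 fold change. Fcgr2b and Fcgr3 encode near-identical extracellular parts, and how reads shared by both genes were counted is not given in the sources used here, so their split is uncertain. In such sums of whole sections, more cells of a type and more RNA per cell cannot be told apart.

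**Figure D1:**
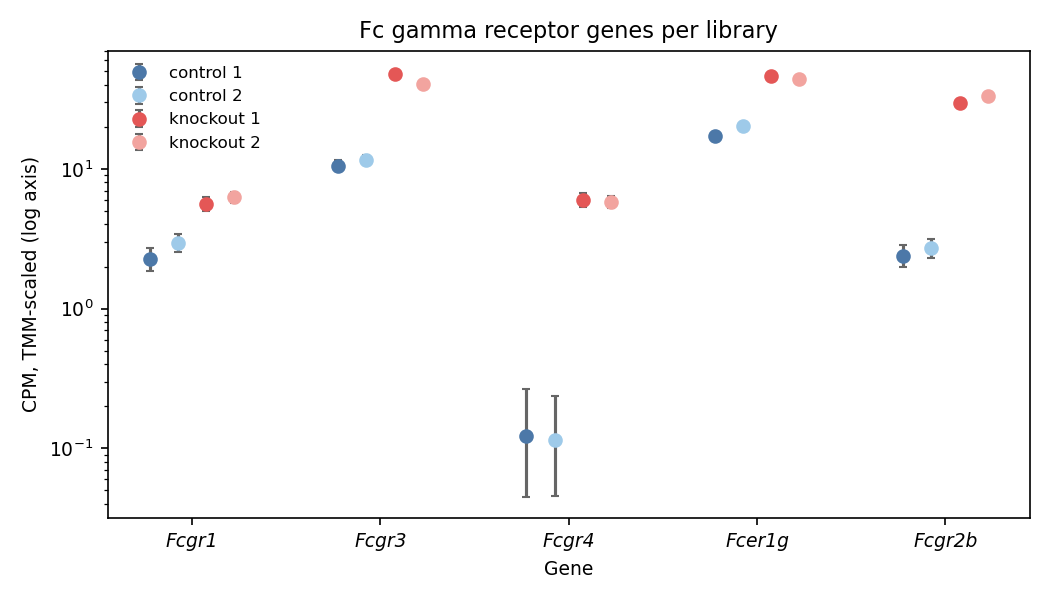
Level of each Fc receptor gene in CPM on a log axis, 1 point per library, with exact 95% Poisson intervals for counting error. Every knockout point lies above both controls of its gene, and the widest gap is that of Fcgr4, from 0.123 and 0.114 CPM to 6.01 and 5.81 CPM.

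The balance of activating to inhibitory receptor transcripts was lower in the knockouts. For each Fcgr2b UMI, Fcgr1, Fcgr3 and Fcgr4 together had 5.39 and 5.43 UMIs in controls, against 1.99 and 1.58 in knockouts. The ratio was nearly the same in both controls and lower in both knockouts, without overlap. On the log2 scale it came to 2.44 ± 0.00765 for controls and to 0.83 ± 0.234 for knockouts (SD, n = 2 each), a difference of -1.61, so the knockout ratio was 3.04-fold lower. An exact two-sided permutation test over the libraries gave p = 0.333, the smallest that 2 against 2 allows, for this ratio and for the other 4 of the family. Each library counts at 3′ ends, so these ratios compare libraries and not the amounts of the receptors themselves.

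Fcgr2b made up 15.6% of the UMIs of the 4 receptors in control 1 (exact 95% interval 13.1 to 18.4, counting error only) and 15.5% in control 2 (13.4 to 17.9). In the knockouts its share was 33.4% (32.1 to 34.8) and 38.7% (37.5 to 39.9). Knockout 2 was above knockout 1 by more than counting error, and both were above the controls. Fcgr3 took a smaller share in the knockouts, with 68.9% and 66.8% for controls against 53.5% and 47.3% for knockouts. The share of Fcgr1 was 14.7% and 17.0% in controls against 6.31% and 7.27%. The share of Fcgr4 was 0.802% and 0.655% in the controls against 6.77% and 6.76%.

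The activating receptors did not share the direction of their ratio to Fcgr2b. Relative to Fcgr2b, Fcgr1 differed by -2.43 on the log2 scale, Fcer1g by -2.35 and Fcgr3 by -1.64 in knockouts against controls. Fcgr4 went the other way, by 2.02, since its fold change exceeded that of Fcgr2b. When equal numbers of spots per region list were drawn from every library, the log2 difference of the main ratio was -1.33.

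**Figure D2:**
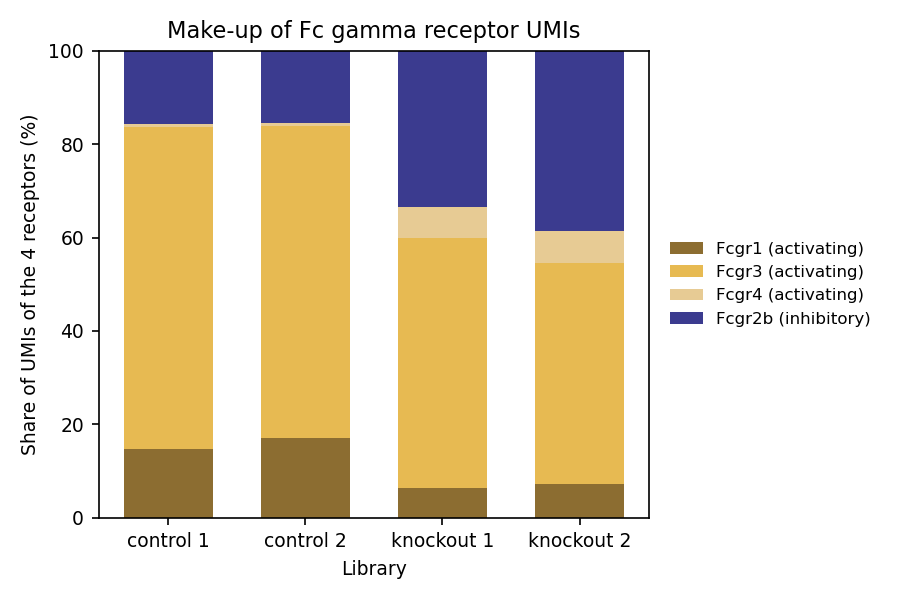
Share of each gene in the summed UMIs of the 4 receptor genes, in percent, as stacked bars for the 4 libraries. The inhibitory share at the top is 15.6% and 15.5% for controls, 33.4% and 38.7% for knockouts, and the Fcgr4 band is visible in the knockouts.

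Markers of myeloid cells moved with the members. Of 10 pan-myeloid genes, 7 rose and 1 fell, and their summed level came to 300 and 307 CPM in controls against 383 and 390 CPM in knockouts. The gene that fell was Coro1a, an actin-binding protein of leukocytes, which supplied 140 and 113 CPM of the sum in controls and 93.0 and 102 CPM in knockouts. For every 100 pan-myeloid UMIs the 5 members had 10.9 and 12.2 UMIs in controls against 35.3 and 33.3 in knockouts, a 2.97-fold difference. Fcgr2b went from 0.799 and 0.878 to 7.74 and 8.51 per 100 (9.69-fold), Fcgr4 from 0.041 and 0.037 to 1.57 and 1.49 (39.2-fold), and Fcgr3 from 3.52 and 3.77 to 12.4 and 10.4 (3.12-fold). The differences were smaller for Fcer1g (1.90-fold) and Fcgr1 (1.80-fold). With Coro1a left out of the sum, a choice made after its values were seen, the differences were 2.30-fold for all members, 7.50-fold for Fcgr2b, 30.4-fold for Fcgr4, 2.42-fold for Fcgr3, 1.47-fold for Fcer1g and 1.39-fold for Fcgr1. The groups did not overlap in any of these 6 ratios with either sum, and the exact two-sided permutation p was 0.333 for each, the smallest possible.

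Types of myeloid cell did not move alike. Of 10 homeostatic microglia genes, 0 rose and 7 fell (median log2 fold change -0.74, against -0.00 over all genes tested), among them P2ry12, the microglial ADP receptor, with 13.1 and 12.5 CPM in the knockouts against a mean of 42.3 CPM in the controls. Of 12 activated phagocyte genes 10 rose (median 2.64), led in abundance by Spp1, which encodes osteopontin (181 and 191 CPM in the knockouts, 8.20-fold). Border macrophage genes rose in 4 and fell in 2 of 10 tested, with a summed level of 17.6 and 22.2 CPM against 42.1 and 44.8 CPM. Monocyte genes rose in 5 of 8 tested, from sums of 11.6 and 13.3 CPM to 31.5 and 34.0 CPM, and Ms4a6c, a monocyte gene, rose 24.9-fold. Neutrophil genes rose in 7 and fell in 1 of 9 tested, from 9.43 and 7.66 CPM to 41.8 and 42.5 CPM. B and plasma cell genes stayed near 2 to 3 CPM in sum (2.09, 1.87, 2.93 and 2.43 CPM), with 3 higher and 1 lower of 6 tested. Pan-endothelial genes rose in 11 of 12 (206 and 215 against 448 and 416 CPM). The part of each of these cell types in the rise of the members was not tested.

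Fc receptor transcripts were spread over many more spots in the knockouts. Because depth per spot differed, the deeper spots were each cut down at random to 5000 UMIs, which left 2267 and 2557 control spots and 2952 and 3468 knockout spots. Of the spots kept, 22.7%, 37.6%, 35.8% and 22.5% were shallower and left out in control 1, control 2, knockout 1 and knockout 2. At least 1 UMI of a member was in 15% (exact 95% interval 13.6 to 16.6) and 17.9% (16.4 to 19.5) of thinned control spots and in 46.6% (44.8 to 48.5) and 45.8% (44.2 to 47.5) of thinned knockout spots. Without thinning the shares were 35.6%, 34.4%, 61.7% and 69.9%. The difference of 29.8 percentage points was larger than the spread within groups, and the exact two-sided permutation p was 0.333 for it and for the other 7 shares compared.

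Fcgr2b was in 1.32% and 1.53% of thinned control spots and in 14.3% and 15.4% of knockout spots, a 10.4-fold difference. Fcgr3 was in 5.03% and 5.91% against 21.4% and 20.1%, and Fcer1g in 8.65% and 9.62% against 22.4% and 20.8%. Fcgr1 was the member whose share differed least, with 1.37% and 1.99% against 3.08% and 3.29%. Fcgr4 was in 1 spot of each control after thinning and in 93 and 111 knockout spots, or 3.15% and 3.20%. A share of spots with a UMI is a detection rate at this depth and not the share of spots whose cells express the gene.

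**Figure D3:**
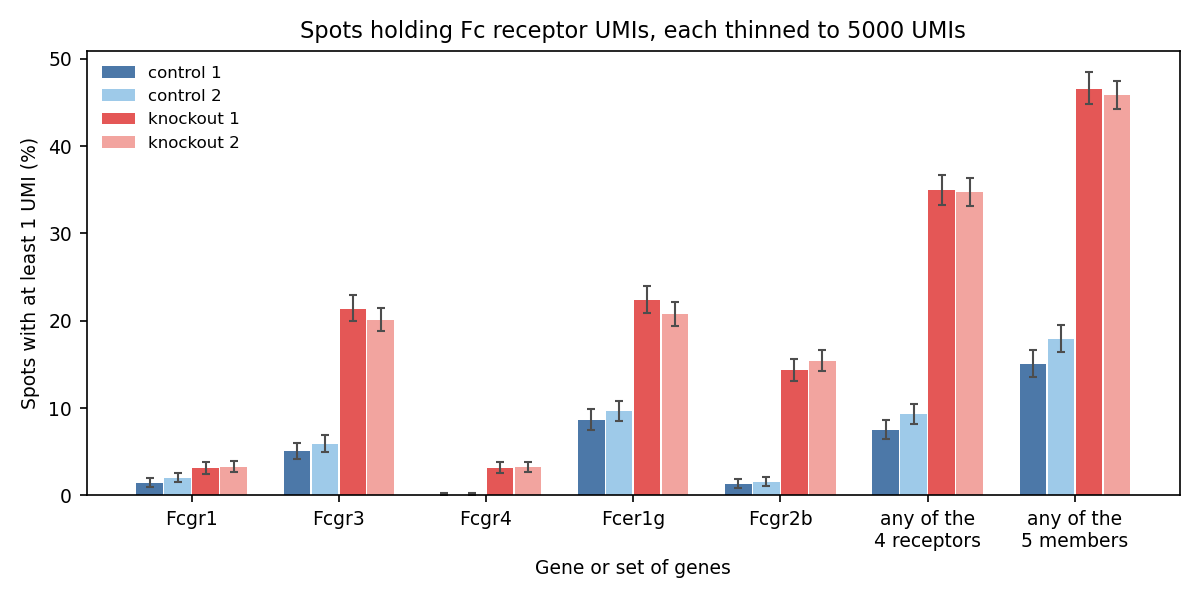
Percent of spots with at least 1 UMI of each gene or set of genes after thinning each spot to 5000 UMIs, with 1 bar per library and exact 95% binomial intervals for counting error. The knockout bars exceed the control bars for every gene and reach 46.6% and 45.8% for any of the 5 members.

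Activating and inhibitory receptors shared a spot in a larger part of the knockout spots. Of the spots with a receptor chain, 2.96% and 0.420% of those in controls (5 of 169 and 1 of 238 spots) and 14.5% and 15% of those in knockouts (150 of 1032 and 180 of 1203 spots) held both Fcgr2b and an activating receptor. Among Fcgr2b spots of the knockouts, 35.5% and 33.6% also held an activating receptor, against 24.1% and 22.8% of the spots without Fcgr2b. The controls went opposite ways on few spots. Control 1 had 16.7% (5 of 30 spots) against 6.21%, and control 2 had 2.56% (1 of 39 spots) against 7.90%. Fcer1g was in 30.7% and 27.7% of knockout spots with a receptor chain and in 18% and 17.1% of those without. In the controls these shares of Fcer1g were 14.2% and 10.9% against 8.20% and 9.49%. These shares grow with the detection of each gene, describe spots within libraries and carry no test.

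Most holding spots held few molecules. The highest count of member UMIs in a thinned spot was 5 and 3 for controls against 8 and 13 for knockouts, and 796 and 943 knockout spots held exactly 1. Only 1 spot, in knockout 2, held all 5 members. The tenth of spots with the most member UMIs carried 72.2% and 60.8% of them in controls, against 40.5% and 42.9% in knockouts. These values depend on how many spots hold a member at all, which was 15% and 17.9% in controls against 46.6% and 45.8%. They therefore do not compare how concentrated the transcripts were. Across spots of a library, the correlation of any pair of members was at most 0.18, a value that such sparse counts limit. The share of Fcgr2b among receptor UMIs in the knockouts was 31.7% and 36.7% in spots with 1 receptor UMI, 39.2% and 37.9% in spots with 2, and 26.8% and 33.5% in spots with 3 or more, which gives no steady order.

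Thinned counts of each gene were correlated with the summed members over the spots of a library, and genes were ranked by the mean of the 4 libraries. The highest were the complement subunits C1qb, C1qc and C1qa, the apolipoprotein gene Apoe, the intermediate filament gene Vim and the protease gene Ctss. Their mean Pearson r over the 4 libraries was 0.24, 0.22, 0.21, 0.19, 0.18 and 0.18. For C1qb the controls had 0.12 and 0.07, the knockouts 0.34 and 0.41. Apoe had 0.18 and 0.09 in the controls, above C1qb in both, so the order of the means did not hold there. Spots of a library share its depth and section, and these values describe likeness over spots only.

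Spots that held a member were richer in phagocyte genes, reactive astrocyte genes and part of the vessel-wall genes than the other spots of their own library. Sums of thinned counts of holding and other spots were compared with the library as a block (edgeR's quasi-likelihood test, Benjamini-Hochberg over 14192 genes, members left out of the calls). It called 427 genes higher (3.01%) and 153 lower (1.08%) in holding spots. These counts depend on both knockouts: they were 109 and 2 without knockout 1, and 130 and 12 without knockout 2. Leaving out control 1 or control 2 gave 280 or 240 lower genes. A second random thinning shared 417 of the 580 calls.

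Among the genes higher in holding spots, Spp1 had 29.9 and 31.9 CPM in holding control spots against 26.2 and 21.8 CPM in other control spots, and 341 and 456 CPM against 132 and 147 CPM in the knockouts (log2 difference 1.30, SE 0.125, adjusted p 1.77e-05). Lyz2, which encodes lysozyme, reached 71.3 and 93.6 CPM in holding knockout spots against 31 and 33.4 CPM (1.23, SE 0.111, adjusted p 1.22e-05). Fcrls, a microglial Fc receptor-like gene, was at 23.8 and 20.6 CPM against 7.49 and 9.16 CPM in the knockouts and at 31.7 and 31.9 CPM against 17.1 and 20.3 CPM in the controls (1.10, SE 0.134, adjusted p 0.000105). The other phagocyte genes named by the rule were Cyba, a subunit of the phagocyte oxidase (0.88), the lysosomal Cd68 (0.85), the ITAM adaptor Tyrobp (0.83) and its receptor Trem2 (0.80). Genes of fibroblasts, smooth muscle and matrix were higher as well, namely Myoc (0.83), Igf2 (0.83), Tagln (0.80), Col1a2 (0.80) and Fmod (0.80). Tagln hardly differed in the controls, with 3.52 and 5.68 CPM in holding spots against 3.53 and 5.05 CPM in other spots. In the knockouts it had 84.4 and 60.4 CPM against 47.1 and 33.9 CPM. All 5 of these fibroblast, smooth muscle and matrix genes lost their calls when spots were thinned to 1000 UMIs. Their adjusted p values there were 0.842, 0.98, 0.425, 0.411 and 0.326 by the same edgeR test, and Igf2 stood at 0.06. Myoc also lost its call with the second random thinning (0.55, adjusted p 0.0707). Fcrls (0.82, adjusted p 0.104) and Trem2 (0.70, adjusted p 0.0831) lost theirs at 1000 UMIs as well, while Spp1, Lyz2, Cyba, Cd68 and Tyrobp passed there.

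The named genes lower in holding spots were Ttr (-1.71), the transthyretin of choroid plexus, Cartpt (-0.96), which encodes a neuropeptide precursor, Slc18a2 (-0.82), the vesicular monoamine transporter, Th (-0.78), tyrosine hydroxylase, Ret (-0.77), a receptor of neurotrophic factors, and Sncg (-0.76), gamma-synuclein. Ttr had its widest gap in control 1, where holding spots had 10.6 CPM and other spots 189 CPM. Control 2 had 48.5 and 66.0 CPM of it, and the knockouts under 1 CPM in both classes. Cartpt, Slc18a2, Th, Ret and Sncg were lower in holding spots of the knockouts only. Their log2 ratios of mean CPM ran from -0.02 to 0.22 in the controls and from -1.44 to -1.16 in the knockouts. Ttr lost its call without knockout 1 (-1.74) and did not pass the filter on low counts without control 1 or without control 2, and the other 5 lost theirs without knockout 1 and also without knockout 2. Ret also lost its call at 1000 UMIs (-0.98, adjusted p 0.169). The 12 named genes that were higher kept their calls with any 1 library left out, although 7 of them lost it at 1000 UMIs, as given above.

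By marker list, 8 of 11 activated phagocyte genes tested were higher in holding spots (median log2 difference 1.09, against a median over all genes tested of 0.01), 7 of 10 homeostatic microglia genes (0.51), 7 of 10 pan-myeloid genes (0.66), 8 of 9 reactive astrocyte genes (0.60), 6 of 11 CCM lesion vascular genes (0.30), 3 of 8 border macrophage genes (0.96) and 3 of 12 pan-endothelial genes (0.21). Of the general astrocyte genes 4 of 8 were higher (0.18), of mural cell genes 3 of 9 (0.22) and of fibroblast genes 3 of 7 tested (0.48). The summed general astrocyte level in holding spots was 1.18 and 1.06 times that of other spots in the controls, and 1.02 and 1 times in the knockouts. No gene of these lists was lower. Of 5 neutrophil genes tested 0 passed, and no B or plasma cell gene was abundant enough to be tested. The summed activated phagocyte level in holding spots was 1.24 times that of other spots in each control, and 1.87 and 2.13 times in the knockouts. For homeostatic microglia the ratios were 1.5, 1.22, 1.44 and 1.5 in control 1, control 2, knockout 1 and knockout 2. Haemoglobin and other erythrocyte genes were also higher in holding spots for 4 of 5, and neuronal genes were lower for 2 of 8.

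**Figure D4:**
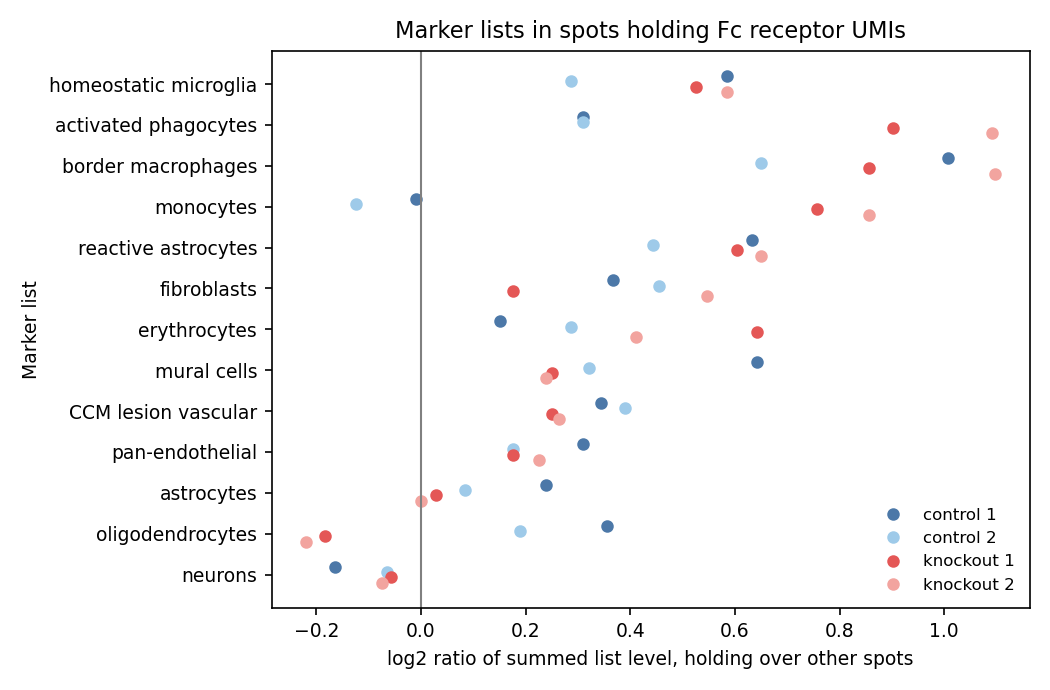
Summed level of each marker list in spots holding a member over that in the other spots of the same library, on a log2 axis, 1 point per library, with a line at no difference. The activated phagocyte points of the knockouts, at ratios of 1.87 and 2.13, lie to the right of those of the controls, both at 1.24.

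The contrast between holding and other spots differed with genotype for part of the genes. The interaction of spot class and genotype called 160 genes higher (1.08%) and 186 lower (1.26%) of 14802 tested. Spp1 differed more between holding and other spots in the knockouts than in the controls by 1.13 (SE 0.161) on the log2 scale, Lyz2 by 0.85 (SE 0.221) and Tyrobp by 0.68 (SE 0.140). The counts fell to 29 higher and 43 lower without control 1, 92 and 121 without control 2, and 65 and 83 without knockout 2. Of the 346 calls, 229 were shared with a second random thinning.

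Few genes were called between spots with the inhibitory receptor alone and spots with activating receptors alone. Fcgr2b without an activating receptor was in 25, 38, 272 and 355 thinned spots of control 1, control 2, knockout 1 and knockout 2, and the reverse in 139, 199, 610 and 668. The same test, over 10539 genes, called 5 genes higher (0.0474%) and 3 lower (0.0285%) with Fcgr2b, and 571 (5.42%) had an unadjusted p under 0.05. Higher were the elastic fibre gene Fbln5 (0.51), the glutamate transporter gene Slc1a3 (0.30), the globin gene Hbb-bs (0.29), the brain RNA Bc1 (0.22) and Vgll3 (1.23), a gene below the level required for naming that was added after its values were seen. The controls went the other way for 3 of these 5: the log2 ratio of mean CPM was -0.61 in controls and 0.48 in knockouts for Hbb-bs, -1.70 and 0.52 for Fbln5, and -1.30 and 1.39 for Vgll3. The control values of Fbln5 and Vgll3 are at most 10.1 CPM. The lower genes included Spp1 (-0.53) and Ptgds (-0.21). A second random thinning kept 2 of the 8 calls, and 0 calls were made without knockout 2, so these names depend on the draw of UMIs.

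The members were higher in the knockouts within every group of spots assigned to a region list. Thinned spots went to the list of region genes they scored highest on, which names likeness to that list and not a place in the section. Summed members stood at 30.7 and 43.9 CPM in control spots of the cortex list and at 204 and 196 CPM in knockout spots. For the hippocampus list the levels were 30.5 and 29.9 CPM against 153 and 163 CPM, for striatum 36.7 and 33.0 CPM against 167 and 171 CPM, and for hypothalamus and amygdala 32.6 and 34.7 CPM against 144 and 154 CPM. The thalamus list had 43.7 and 45.6 CPM against 131 and 118 CPM, and midbrain and hindbrain 48.6 and 47.9 CPM against 112 and 105 CPM. In the knockouts cortex spots were highest and midbrain and hindbrain spots lowest. In the controls midbrain and hindbrain spots had the highest values, close to those of thalamus spots. Those control values rest on few UMIs, with 33 and 28 UMIs of the 4 receptors for midbrain and hindbrain and 47 and 68 for thalamus. No counting intervals were computed, so the order of the lists in the controls is uncertain, and a difference in order between groups was not tested.

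Fcgr2b in the knockouts had 41.9 and 45.1 CPM in hippocampus spots, 39.4 and 39.8 CPM in cortex spots and 17.9 and 18.6 CPM in midbrain and hindbrain spots. Its share of receptor UMIs was 29.0% to 41.6% over the 12 knockout values, with the highest pair in hippocampus spots (39.8% and 41.6%). The control shares rest on 2 to 13 Fcgr2b UMIs each and ranged from 9.09% to 36.0%. The Fcgr4 level in the knockouts ran from 1.41 and 4.19 CPM in midbrain and hindbrain spots to 10.0 and 9.04 CPM in cortex spots. No UMI of it was counted in either control in 5 of the 6 lists. Only 1 thinned spot of each control held Fcgr4, so the controls cannot show a pattern over the lists.

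Genes that act with the Fc receptors mostly rose too. Of 83 genes in 6 pathway lists, 64 were tested, of which 40 were higher, 4 were lower and 20 did not pass. Their median log2 fold change was 0.72. Among all genes tested, 20.1% were called higher and 18.3% lower, with a median of -0.00, and the counts per list below are to be read beside these shares. The lists were chosen with results of these libraries known, so they are no independent evidence of direction.

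Transcripts of immunoglobulin chains, the ligands of Fc receptors, were few. Of 12 immunoglobulin chain genes 5 were tested, and 0 were higher and 1 was lower. Ighm, the heavy chain of immunoglobulin M, fell from 10.0 and 11.5 CPM to 5.32 and 4.57 CPM (log2 fold change -1.13, SE 0.125, adjusted p 0.000709). Igkc, the kappa light chain, had 0.573 and 3.40 CPM in controls against 6.60 and 1.21 CPM in knockouts, with overlap. Its log2 fold change of 0.89 was -0.76 without knockout 1, 0.15 without control 1, and passed at 2.72 without control 2 and at 1.68 without knockout 2. Igha, the heavy chain of immunoglobulin A, had 1.28 in the same test and -0.88, 0.42, 4.78 and 2.18 in these, the last 2 of which passed. Both also passed as higher with no filter on low counts (log2 fold changes 0.87 for Igkc and 1.26 for Igha) and with crossed replicate numbers (adjusted p 0.00176 and 0.00356 by edgeR), and Igha with equal numbers of spots per region list (3.12). Of the immunoglobulin G heavy chains, Ighg1 and Ighg3 had 0 UMIs in every library, and Ighg2b had 10 UMIs in knockout 1 and 0 in the other 3 libraries. Ighg2c had 1.11 and 0.927 CPM against 1.48 and 1.21 CPM and did not pass (adjusted p 0.185). Transcripts do not report on antibody protein that enters tissue from blood.

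Other Fc receptors gave 3 higher and 1 lower gene of 5 tested. Fcgrt, which encodes the neonatal Fc receptor that recycles immunoglobulin G, rose from 17.0 and 20.2 CPM to 26.2 and 23.9 CPM (1.34-fold, adjusted p 0.0151). Trim21, the cytosolic antibody receptor, rose 1.60-fold and Fcmr, the receptor for immunoglobulin M, 2-fold. Both lost their calls without control 1 (log2 fold changes 0.60 and 0.80), without knockout 2 (0.58 and 0.71) and with DESeq2 (0.67 and 1.00). With spots thinned to 1000 UMIs, Fcgrt was 0.16 (adjusted p 0.506 by edgeR) and Trim21 0.53 (adjusted p 0.467), so neither passed. Fcrls fell from 19.1 and 22.3 CPM to 11.6 and 12.9 CPM (log2 fold change -0.76, adjusted p 0.00177), opposite to all 5 members. Its call was lost at 1000 UMIs per spot (-0.24, adjusted p 0.342).

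In the list of other ITAM-coupled receptors and adaptors, 10 of 12 tested rose and 1 fell. Tyrobp, the ITAM adaptor DAP12, rose 1.64-fold from 35.0 and 38.5 CPM to 62.6 and 58.4 CPM. Hcst, the adaptor DAP10, is on this list although it carries no ITAM, and it rose 6.46-fold. Clec4d, a C-type lectin receptor, had 1 and 2 control UMIs against 65 and 116 knockout UMIs, and Pira2, a paired receptor that uses the gamma chain, had 1 and 4 UMIs against 54 and 75. The gene that fell was Trem3. Of 20 kinases and effectors 13 rose and 0 fell, with Lyn, a Src-family kinase (2.18-fold), Lat2, an adaptor (2.94-fold), and Arpc1b, an actin-nucleating subunit (1.41-fold), among those named by the rule.

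The inhibitory arm beyond Fcgr2b was mixed, with 8 higher and 1 lower of 16 tested (median 0.25). The receptors Lilrb4a (12.2-fold, 0.287 and 0.358 CPM against 3.63 and 4.33 CPM), Pirb (10.8-fold) and Cd300lf (24.5-fold, 95% interval 13.1 to 46.0, from 4 and 2 UMIs to 69 and 114) rose. Ptpn6, the phosphatase SHP-1, rose 2.17-fold but missed the threshold at 1000 UMIs per spot (adjusted p 0.0532 by edgeR), and Inpp5d, the phosphatase that Fcgr2b recruits, went from 5.20 and 6.17 CPM to 9.49 and 9.51 CPM (log2 fold change 0.74, adjusted p 0.0031). Inpp5d is named for its role and was singled out after its values were seen. Sirpa was the gene that fell. All 6 genes of the phagocyte oxidase rose, among them Cyba (2.69-fold), Cybb (4.87-fold), Ncf1 (2.14-fold) and Rac2 (2.75-fold).

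**Figure D5:**
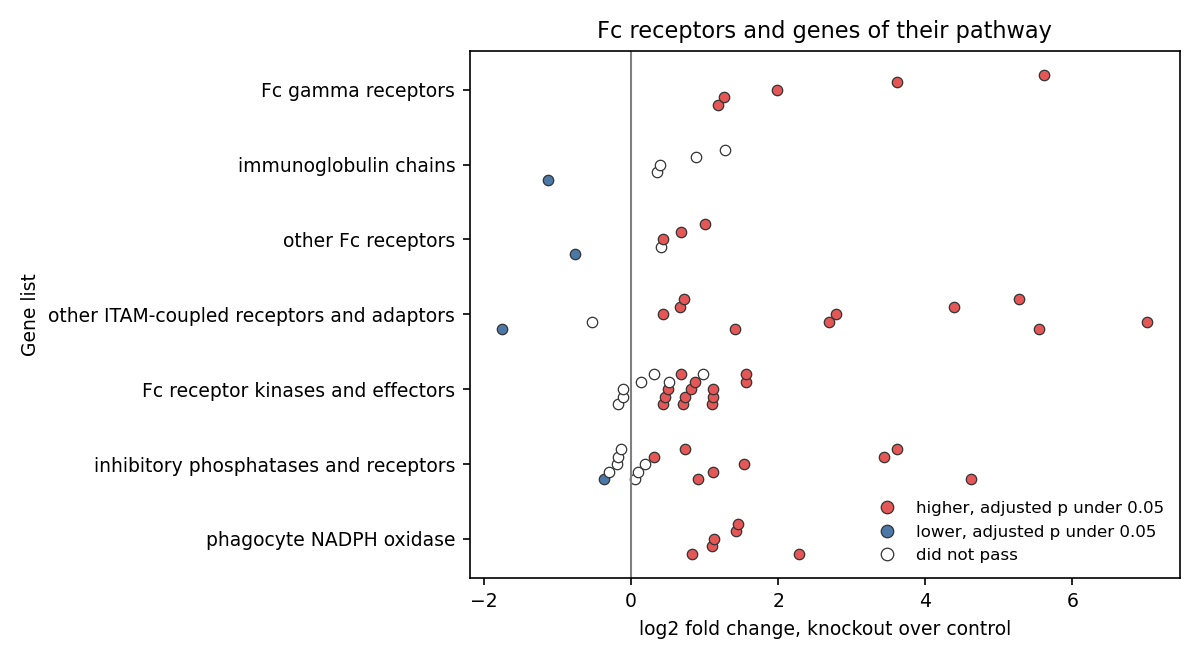
Log2 fold change of every tested gene, knockout over control, for the 5 Fc receptor genes and the 6 pathway lists, with filled points past an adjusted p of 0.05. The Fc receptor genes all lie right of 0, from 1.18 to 5.62. Of the 5 immunoglobulin chains tested, the 1 that passed, Ighm, lies left of 0. The rightmost point is Trem1, which had 0 UMIs in both controls, so its place depends on the prior count.

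Other genes within and beside the chromosome 1 cluster changed in both directions. Of 24 other tested genes in it or within 250000 bases of it, 4 were higher (Klhdc9, Nectin4, Arhgap30 and F11r), 8 were lower and 12 did not pass. Their median log2 fold change was -0.08. Over all genes tested, 20.1% were called higher and 18.3% lower. Dusp12, the nearest tested neighbour on the Fcgr2b side, fell from 16.4 and 13.8 CPM to 7.47 and 7.96 CPM (log2 fold change -0.96, adjusted p 0.000818).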

How the data were processed

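The members and gene lists were chosen with earlier results of these data known. The deposited tables list unnormalised UMI counts by gene and barcode. The authors aligned reads to mm10 and counted them with Space Ranger, per the submitters' processing notes, and Cell Ranger version 4 wrote the matrices, per the file headers. Spots were kept at 1000 UMIs without a call of tissue. Spot positions were not analysed here. Each library's counts were added up over its spots, and edgeR 4.0.16 under R 4.3.3 gave the tests (TMM, filterByExpr, quasi-likelihood, Benjamini-Hochberg, threshold 0.05), after a check on simulated data, where 66% of 2-fold and 10% of 1.5-fold changes were recovered for knockout against control. The simulation gave all genes the same dispersion and changed 200 of them, while 38.4% of the genes tested were called here. Those rates are therefore no measure of recovery in these data. Classes of spots used counts thinned to 5000 UMIs with seed 1 and the library as a block.

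Named were the members, up to 4 genes per pathway list by smallest p (up to 2 by level where fewer than 2 passed), the 12 largest rises and 6 largest falls in holding spots at a mean of at least 20 CPM, up to 6 per direction between receptor classes, and 6 genes by correlation. Genes named outside this rule are the pair of highest-level markers per list, genes of pathway lists given for their role, and neighbours. Regions and spot shares were computed in Python 3.11.15 with scipy 1.17.1. Libraries of a group differed by more than sampling noise (chi-square per degree of freedom 55.1 for controls and 16.7 for knockouts). Shared replicate numbers did not pair the libraries (r = -0.118). A few genes that the rule or the text would name are not reported here.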

Additional observations from a re-analysis of the deposited data

Results flagged for a closer look

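In the test of whether the contrast of holding and other spots differed between knockouts and controls, 8 of the named genes passed. The log2 difference was larger in the knockouts by 1.13 for Spp1, 0.85 for Lyz2 and 0.68 for Tyrobp. It was more negative in the knockouts by -1.57 for Cartpt, -1.28 for Slc18a2, -1.59 for Th, -1.40 for Ret and -1.24 for Sncg. In other knockout spots Th stood at 64.8 and 73.8 CPM against 25.6 and 25.7 CPM in holding spots, while in the controls it was at 64.2 and 49.1 CPM against 68.0 and 56.8 CPM. What sets these neuronal genes apart was not tested.

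Barcodes under 1000 UMIs entered the comparisons only in the alternative with all barcodes. On their own they also held 4 of the 5 members above the level in the controls. Fcgr3 had 52.1 CPM in knockout 1 and 70.3 CPM in knockout 2 (controls 7.11 and 7.07 CPM), Fcgr4 38.2 and 11.7 CPM (1.42 and 0 CPM), Fcer1g 62.6 and 58.6 CPM (18.5 and 14.1 CPM) and Fcgr2b 48.7 and 43.9 CPM (1.42 and 0 CPM). Fcgr1 overlapped, with 6.95 and 2.93 CPM against 1.42 and 4.71 CPM, from 1 or 2 UMIs in each library. All 5 members came to 209 and 187 CPM there, against 29.9 and 25.9 CPM in the controls. These levels rest on 60 and 64 member UMIs in the knockouts and 21 and 11 in the controls.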

How the results depend on the processing

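All 5 members stayed higher and past the threshold in each of the 13 other settings run, including each library left out and DESeq2. Of the pathway genes, 19 higher and 1 lower passed at 1000 UMIs per spot, and 7 lower with no filter on low counts. A replicate block called 5813 genes and kept 5 of 5 members and 38 higher pathway genes, so it changed no call of a member. With the numbers crossed, chosen after seeing the data, 8176 genes were called. With equal numbers of spots per region list the balance was -1.33, and the log2 difference per pan-myeloid UMI was 5.63 for Fcgr4 and 3.01 for Fcgr2b. At 1000 UMIs it was 1.49 for Fcgr3, 1.35 for Fcer1g and 1.73 for all members, and Fcgr4 gave no value because control counts were 0. With Coro1a left out of the pan-myeloid sum, chosen after seeing the data, it was 0.48 for Fcgr1, 1.27 for Fcgr3, 4.92 for Fcgr4, 0.56 for Fcer1g, 2.91 for Fcgr2b and 1.20 for all members. The difference in spots with any member was 12.0 points at 1000 UMIs, 34.4 at 10000 and 17.0 with 2 UMIs required.

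Higher and lower genes in holding spots numbered 62 and 26 at 1000 UMIs, 783 and 512 with 2 UMIs required, and 264 lower with seed 2. Leaving out 1 library, which takes the lone library of its group to vary like the other group, gave 109 to 489 higher and 2 to 280 lower. Differences by genotype numbered 3 and 2 at 1000 UMIs, 103 and 79 with 2 UMIs required, 268 higher with seed 2, and 29 to 107 higher and 43 to 139 lower with 1 library left out. Fcgr2b against activating spots gave 8 higher without TMM, 0 and 0 at 1000 UMIs, 8 and 1 with seed 2, and 0 to 8 higher and 0 to 3 lower with 1 library left out. In that comparison Hbb-bs was -0.08, Bc1 -0.04 and Ptgds 0.29 at 1000 UMIs, and Bc1 was -0.00, Ptgds 0.15 and Spp1 0.06 with seed 2. With 1 library left out, Hbb-bs ran from -0.00 to 0.39, Igkc between the groups from -0.76 to 2.72 and Igha from -0.88 to 4.78. The cause was not tested, beyond the fewer UMIs and samples of these settings.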
